A study of Homo sapiens with 6 samples.

Results

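The response of U87MG, an established human glioblastoma cell line, to the microRNA miR-338-5p was measured as 1 microarray of cells transfected with a precursor of the microRNA (the mimic) minus 1 microarray of cells transfected with a negative control. These are 2 of the 6 arrays of the study, and 13813 genes could be compared. The groups used here were U87MG with the mimic and U87MG with the negative control, then A172 and T98G, further glioblastoma lines, each with the mimic and with the negative control. All cells were grown in DMEM with fetal bovine serum, were transfected, and gave RNA 24 hours later. Each group is 1 array, and whether 1 culture or several pooled ones lie behind it is not stated in the labels. The negative control also received an oligonucleotide, and no untransfected cells were analysed here. No genotype is given in the labels, and a line that grows in serum stands for 1 tumour isolate and not for glioblastoma tissue.

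MicroRNAs are short RNAs that guide Argonaute proteins to messenger RNAs. Pairing of the seed, bases 2 to 8 of the microRNA, with a site in the 3' UTR usually lowers the target by deadenylation, decapping and decay and by less translation. Targets are therefore mostly sought among the genes that are lower, while genes that are higher are usually downstream of them. The miR-338 hairpin lies within AATK, a gene for a neuronal kinase, and the 3p strand of the same hairpin is known for its part in the maturation of oligodendrocytes.

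The sequences show the strand that the labels name and the seed it carries. They are reference sequences from RefSeq (GRCh38.p14), not read from the transfected oligonucleotide, with the hairpin at chr17:81125883-81125949 on the minus strand, inside the AATK locus. Capitals mark the seed in the mature strands and the 5p strand in the hairpin.
hsa-miR-338-5p: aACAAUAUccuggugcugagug
hsa-miR-338-3p: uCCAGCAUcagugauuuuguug
MIR338 hairpin: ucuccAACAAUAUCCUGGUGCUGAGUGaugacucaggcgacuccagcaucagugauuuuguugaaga
The seeds of the 5p and 3p strands differ. Of 2545 mature human microRNAs in the RefSeq table, only miR-338-5p itself has its seed. Matches in 3' UTRs were not analysed here.

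Values are the log2 RMA expression values deposited by the authors, and every difference is mimic minus control on that scale, where 1 is a factor of 2. Array medians lay between 5.06 and 5.14. The 2 U87MG arrays correlated with r = 0.992 over all probe sets, whereas between lines r lay between 0.954 and 0.962. Genes with a mean below 4.28 over the 6 arrays were left out. The line carried mesenchymal and some glial markers at high level: VIM was at 12.61 with the mimic and 12.65 with the control, CD44 at 11.86 and 11.90, and GJA1, the astrocyte gap junction protein, at 9.27 and 9.02. GFAP, the defining astrocyte filament, was only at 5.08 and 5.07. S100B, AQP4, SLC1A2, FABP7 and PROM1 lay below the level of 4.28 in both U87MG arrays, while SLC1A3, an astrocyte glutamate transporter, was at 7.89 and 8.02 and CHI3L1 at 9.84 and 9.91. Of 20 astrocyte and progenitor markers 13 passed that level in both arrays. The summed level of all 20 was 13.63 with the mimic and 13.65 with the control, and VIM and CD44 made up most of it. In RNA of a whole culture, fewer cells of a kind and less RNA per cell cannot be told apart.

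Over all genes the U87MG difference had a median of 0.02 and an SD of 0.218, and 95% of genes differed by less than 0.437 either way. By at least 0.5, 190 genes were higher with the mimic, 1.38% of those tested, and 255 were lower, 1.85%. By at least 1, 14 were higher, 0.101%, and 22 were lower, 0.159%. With 1 array a side these differences carry no test within U87MG. Evidence beyond this line came from limma fits. Over A172, T98G and U87MG together, with the line as a block, 44 genes rose, 0.319%, and 109 fell, 0.789%, at an adjusted p under 0.05. This 3-line fit contains the U87MG arrays, so it is no separate support for genes picked by their U87MG difference. The 4 arrays of A172 and T98G took no part in that difference, and a limma fit on them alone gives a separate reading. It called 0 genes after adjustment (lowest adjusted p = 0.0734, with 1 residual degree of freedom). At an unadjusted p under 0.05 it had 647 genes as higher, 4.68% of those tested, and 692 as lower, 5.01%.

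The 14 genes lowest with the mimic include ones of membrane traffic, lipid synthesis, kinase signalling and RNA decay. RAB1A, a small GTPase that carries vesicles between endoplasmic reticulum and Golgi, was at 8.66 with the mimic and 10.35 with the control, a difference of -1.68. ATAD1, an ATPase that extracts misplaced proteins from the outer mitochondrial membrane, was at 6.61 with the mimic and 8.22 with the control, -1.62. SCML1, a Polycomb-related protein, was at 6.39 with the mimic and 7.98 with the control, -1.59. RAB1A was thus 3.21 times lower with the mimic, and ATAD1 3.06 times. GPAT3, which adds the first acyl chain to glycerol 3-phosphate, was at 8.22 with the mimic and 9.78 with the control, -1.57. MMD, a membrane protein linked to macrophage differentiation, was at 6.22 with the mimic and 7.69 with the control, -1.47. PPP2R5A, a regulatory B56 subunit of protein phosphatase 2A, was at 5.67 with the mimic and 7.11 with the control, -1.44. These 6 genes stood at medium to high level with the control, well above the filter level.

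Signalling and surface genes followed. TMEM64, a membrane protein, was at 6.40 with the mimic and 7.84 with the control. PLEKHA3, which binds a Golgi phosphoinositide, was at 6.26 with the mimic and 7.70 with the control. MAPK6, the atypical kinase ERK3, was at 7.61 with the mimic and 8.97 with the control. Their differences were -1.44, -1.43 and -1.36. SYPL1, a synaptophysin-like vesicle protein, was lower by 1.32, the ubiquitin ligase RNF138 by 1.25, the protein kinase PKN2 by 1.21, and DCP2, the decapping enzyme that removes the cap of messenger RNAs, by 1.18. CXADR, the adhesion protein that serves as receptor for coxsackieviruses and adenoviruses, was at 6.77 with the mimic and 8.02 with the control, a difference of -1.25.

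In the fit on A172 and T98G alone, the 14 genes were all lower and reached an unadjusted p under 0.05, against 5.01% of all genes, and none passed after adjustment (adjusted p between 0.0734 and 0.346). CXADR was lower by less outside U87MG, by 0.28 in A172 and by 0.60 in T98G. RAB1A differed about as much in every line, by -1.68 in U87MG, -1.60 in A172 and -1.91 in T98G. GPAT3 differed by -1.57 in U87MG, -0.72 in A172 and -1.87 in T98G. A172 started from a low GPAT3 level, 4.71 with the control, against 9.18 in T98G and 9.78 in U87MG. PLEKHA3 and MAPK6 were lower by less outside U87MG: PLEKHA3 differed by -0.70 in A172 and -1.12 in T98G, and MAPK6 by -0.71 and -0.79.

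**Figure D1:**
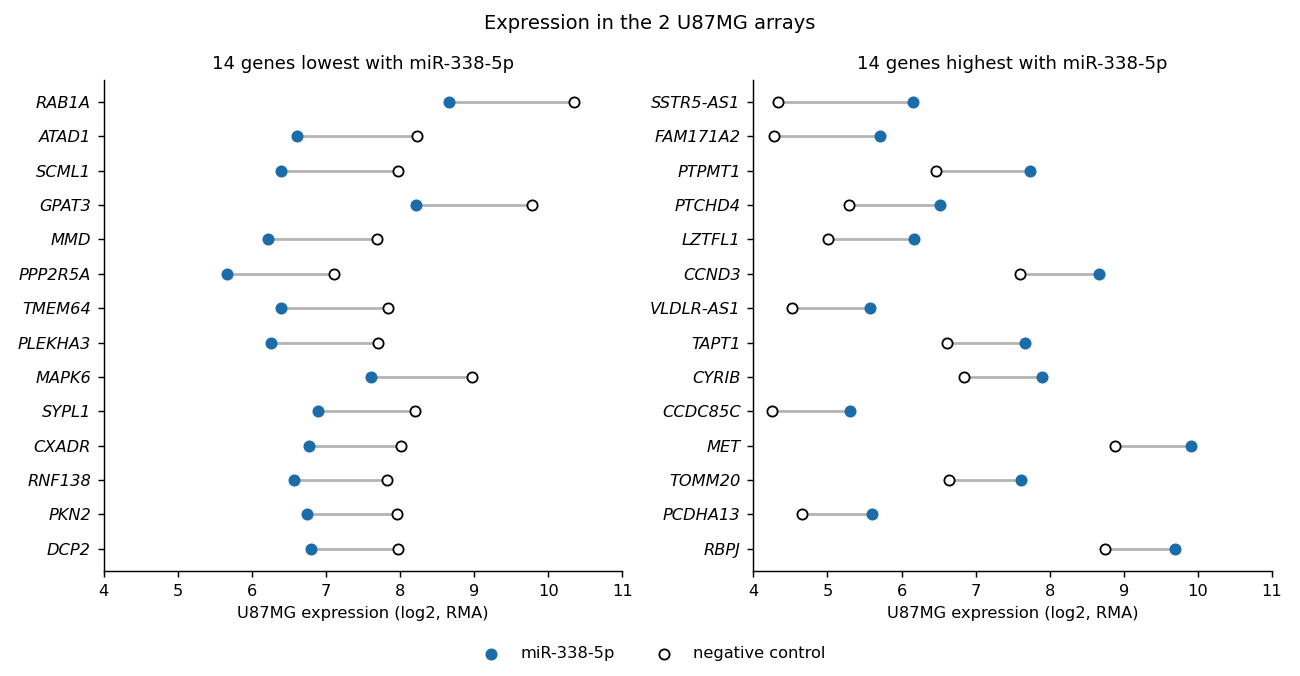
Log2 expression (x axis) in the 2 U87MG arrays, filled for the mimic and open for the negative control, for the 14 genes with the lowest (left) and the 14 with the highest (right) mimic minus control difference, 1 array a point. Genes on the left start from 7.11 to 10.35 with the control, and those on the right from 4.26 to 8.88.

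Of the 14 genes highest with the mimic, 5 were shared with both other lines, 3 with 1 of them, 5 were intermediate and 1 was near 0 in both. PTPMT1, a mitochondrial phosphatase of cardiolipin synthesis, was at 7.74 with the mimic and 6.46 with the control, a difference of 1.27. MET, the receptor for hepatocyte growth factor, was at 9.90 with the mimic and 8.88 with the control, 1.02. RBPJ, the DNA-binding effector of Notch signalling, was at 9.69 with the mimic and 8.75 with the control, 0.94. A second, dimmer RBPJ probe set was at 5.35 with the mimic and 5.08 with the control, 0.27, and the mean over both gives 0.61. With TAPT1 (1.05), CYRIB, an inhibitor of RAC1-driven actin assembly (1.05), and TOMM20, a receptor of the mitochondrial import pore (0.97), these 6 genes were higher in A172 and T98G too. In the fit on those lines alone they reached an unadjusted p under 0.05, against 4.68% of all genes, and none passed after adjustment (adjusted p between 0.09 and 0.207). MET differed by 1.02 in U87MG, 1.32 in A172 and 1.10 in T98G.

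Of the other 8 genes, 4 were higher in that fit and 2 reached an unadjusted p under 0.05, against 4.68% of all genes. SSTR5-AS1, an antisense RNA of a somatostatin receptor gene, had the highest difference of all genes, 1.83. It was at 6.16 with the mimic and 4.33 with the control in U87MG, against 6.14 and 6.38 in A172 and 6.05 and 5.86 in T98G. The U87MG control array is thus the single low value among the 6. FAM171A2 was at 5.70 with the mimic and 4.28 with the control in U87MG, and differed by 0.31 in A172 and 0.07 in T98G. Both U87MG arrays lay below the other lines, at 7.53 and 7.21 in A172 and 6.11 and 6.03 in T98G, and the control was the lowest. CCDC85C, at 5.30 and 4.26, and PCDHA13, a clustered protocadherin that shares exons with its neighbours, at 5.60 and 4.65, were higher by 1.05 and 0.94 in U87MG and lower by 0.45 and 0.43 in A172. A second probe set of CCDC85C differed by -0.64, so the direction of this gene is uncertain.

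CCND3, the D-type cyclin that drives entry into S phase, was at 8.66 with the mimic and 7.59 with the control. Its difference of 1.07 stood beside 0.29 in A172 and 0.72 in T98G (adjusted p = 0.109 in the 3-line fit). LZTFL1, a regulator of ciliary protein traffic, was at 6.17 with the mimic and 5.00 with the control, 1.16 higher, against 0.41 in A172 and 0.54 in T98G. VLDLR-AS1, an antisense RNA, was at 5.58 with the mimic and 4.52 with the control, 1.06 higher, against 0.26 and -0.01. PTCHD4 is described with the genes absent from the other lines.

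PPP2R5A, NDFIP1 and RHEB, known from work on this microRNA in glioblastoma cells, were lower in every line. NDFIP1, which recruits ubiquitin ligases of the NEDD4 family, was at 6.92 with the mimic and 7.87 with the control in U87MG, a difference of -0.95, with -0.97 in A172 and -0.95 in T98G. RHEB, the GTPase that activates mTORC1, was at 9.47 with the mimic and 10.23 with the control, -0.77, with -1.01 in A172 and -1.02 in T98G. AATK, the host gene, was at 4.98 with the mimic and 5.03 with the control, a difference of -0.05. The first 3 are no independent evidence, since they were chosen with results of these arrays known.

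Sharing was read from size alone. A gene is called shared when it differed by at least 0.5 the same way in A172 and T98G, absent when it differed by less than 0.2 either way in both, and intermediate otherwise. Over all 13813 genes, 98 were lower and 37 higher by at least 0.5 in both A172 and T98G. The median size of a difference was 0.119 in A172 and 0.125 in T98G, under the absent limit. The share of all genes within that limit in both lines was not counted, so absent counts are not read as a U87MG trait. Of the 22 genes lower by at least 1, 20 (90.9%) were shared with both lines, CXADR with T98G only, and 1, ZNF730, was absent. Of the 14 genes higher by at least 1, 4 (28.6%) were shared with both, 2 with 1 line, 5 were intermediate and 3 absent. The 22 lower genes had median differences of -1.25 in U87MG, -1.08 in A172 and -1.11 in T98G. The 14 higher genes had medians of 1.12 in U87MG, 0.30 in A172 and 0.16 in T98G.

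At a size of 0.5 the sharing was thinner. Of 255 lower genes, 69 (27.1%) were shared with both lines, 60 with 1, 93 were intermediate and 33 absent. Of 190 higher genes, 25 (13.2%) were shared with both, 35 with 1, 87 were intermediate, 42 absent and 1 was opposite in both. By size alone, 271 genes were higher (1.96%) and 238 lower (1.72%) in A172, and 202 were higher (1.46%) and 310 lower (2.24%) in T98G. Shared genes were better expressed: their median U87MG level was 7.73 for lower and 7.18 for higher genes, against 4.92 and 5.39 for absent ones. Among the genes higher by at least 0.5, 38 had a U87MG control value below 4.28. Among the genes lower by at least 0.5, 37 had a U87MG mimic value below it. Whether dim probe sets account for the absent genes was not tested.

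**Figure D2:**
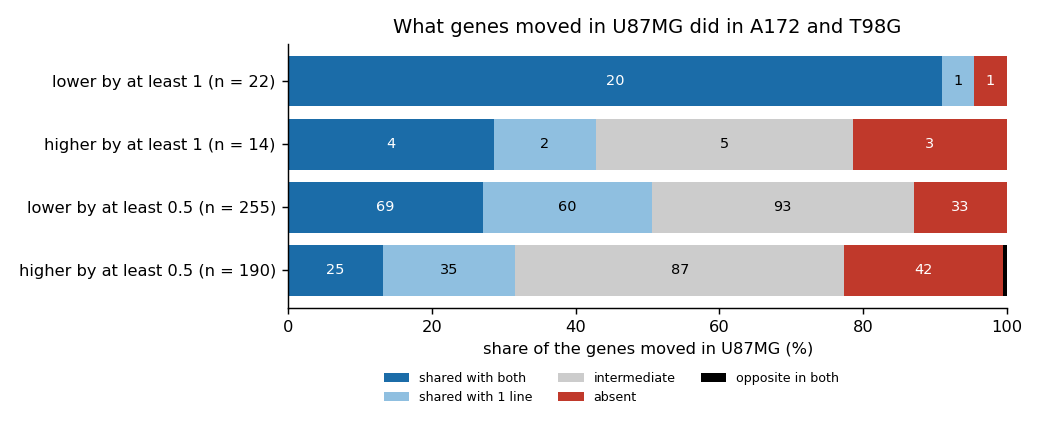
Share (x axis, %) of the genes higher or lower in U87MG by at least 1 or 0.5 (log2) that fell into each class by their differences in A172 and T98G, with the number of genes in each segment. Shared means at least 0.5 the same way and absent means under 0.2 either way in both lines; the unlabelled black end of the last bar is 1 opposite gene. The top bar is almost wholly shared, 20 of 22 genes.

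The fit on A172 and T98G alone was read in the same classes, at its unadjusted p under 0.05. Of all genes tested, 5.01% reached this as lower and 4.68% as higher. Of the 22 genes lower by at least 1 in U87MG, 21 reached it as lower, and of the 14 higher ones 6 as higher. Of the 255 lower by at least 0.5, 137 did, and of the 190 higher ones 67 did. The share was highest among the genes that were lowest in U87MG.

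Read the other way, 98 genes were lower by at least 0.5 in both A172 and T98G, and 95 of them were also lower in U87MG, 69 (70.4%) by at least 0.5. Of 37 genes higher by at least 0.5 in both, 33 were also higher in U87MG, 25 (67.6%) by at least 0.5. The 14 genes lower by at least 1 in both lines were all lower in U87MG, with differences between -1.68 and -0.72. None of the genes that differed by at least 1 the same way in A172 and T98G lay within 0.25 of 0 in U87MG. Over all genes the U87MG difference correlated with that of A172 at r = 0.292 and with that of T98G at r = 0.272, and A172 with T98G at r = 0.278. These are descriptions across 13813 genes, most of which differed little.

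**Figure D3:**
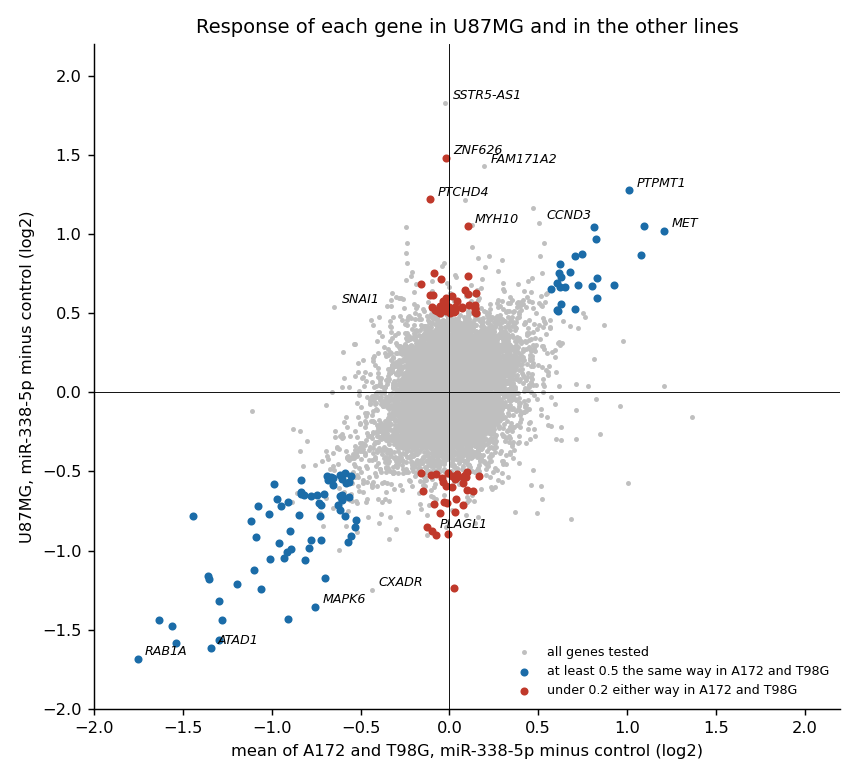
Mimic minus control difference (log2) of each of 13813 genes in U87MG (y axis) against the mean of A172 and T98G (x axis). Blue points, shared with both lines, run from RAB1A at the lower left to MET at the upper right; red points, absent from both, lie along the vertical line at 0 and include ZNF626 (1.48) and PTCHD4 (1.22).

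The difference between the U87MG response and the mean response of A172 and T98G was tested in limma with all 6 arrays. It passed for 0 genes, 0% of those tested (lowest adjusted p = 0.95), and 625 genes, 4.52%, had an unadjusted p under 0.05. No gene is therefore shown to respond in U87MG alone. The 6 genes with the smallest p were ZNF626, SSTR5-AS1, PTCHD4, HSP90AA6P, ZNF730 and FAM171A2.

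Of the 6 absent genes with the largest differences on the higher side, the pair linked to p53, PTCHD4 and SPATA18, had the highest levels. PTCHD4, a patched-domain protein induced by p53, was at 6.51 with the mimic and 5.30 with the control in U87MG, against 5.25 and 5.30 in A172 and 4.20 and 4.37 in T98G. In this probe set, which stands for the gene, the mimic array of U87MG is the single high value. A second probe set was at 7.40 with the mimic and 6.58 with the control, so there the U87MG control also lay well above 4.28. It differed by 0.82 in U87MG, 0.08 in A172 and -0.21 in T98G, and its levels in those lines are not given here. SPATA18, a p53-induced protein of mitochondrial quality control, was at 5.57 with the mimic and 4.81 with the control in U87MG, 0.75 higher. It lay below 4.28 in the 4 other arrays and passed the filter only through U87MG. A172 and T98G therefore cannot show whether it moves. CDKN1A, the p53-induced CDK inhibitor p21, was at 8.42 with the mimic and 7.73 with the control, a difference of 0.69, against 0.24 in A172 and -0.27 in T98G.

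Most p53 targets did not follow. Of 25 tested, 2 were higher by at least 0.5 in U87MG (SPATA18 and CDKN1A) and 0 lower, 16 were above 0, and their median was 0.06 in U87MG, -0.04 in A172 and 0.03 in T98G. AEN, a p53-induced nuclease, differed by 0.46 and SESN2 by 0.41. MDM2, the ubiquitin ligase that degrades p53, was at 9.62 with the mimic and 9.65 with the control. BAX, BBC3 and PMAIP1, which promote cell death, differed by 0.04, 0.01 and -0.06. None of the 25 passed the 3-line fit.

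Other absent genes lay near the limit of detection in U87MG and far above it elsewhere. ZNF626, a zinc finger gene, was at 4.79 with the mimic and 3.31 with the control in U87MG, against 7.58 and 7.58 in A172 and 7.50 and 7.54 in T98G. Its second probe set differed by 0.20 in U87MG, and the mean over both gives 0.84. MYH10, the nonmuscle myosin heavy chain IIB, was at 4.51 with the mimic and 3.46 with the control in U87MG, against 8.86 and 8.77 in A172 and 8.28 and 8.17 in T98G. U87MG thus expressed little of either gene with or without the mimic. On the lower side ZNF730 (2.47 with the mimic and 3.70 with the control), ZNF667-AS1 (2.10 and 3.01) and GSTM3 (1.93 and 2.83) were below the filter level in both U87MG arrays.

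PLAGL1, an imprinted zinc finger regulator of growth, had the highest level of the 6 absent genes named on the lower side. It was at 7.09 with the mimic and 7.97 with the control in U87MG, a difference of -0.88, and at 5.29 and 5.41 in A172 and 4.64 and 4.72 in T98G. RAB30, a Golgi GTPase, was at 5.11 with the mimic and 5.96 with the control in U87MG, -0.85, against 7.11 and 7.24 in A172 and 7.63 and 7.76 in T98G. GNAL, a G protein alpha subunit, differed by -0.76 from a control level of 5.60. LAIR2 and C11orf96 were higher by 0.74 and 0.71 with levels between 4.39 and 5.45. The test against A172 and T98G gave each of these 12 genes an adjusted p of 0.95.

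**Figure D4:**
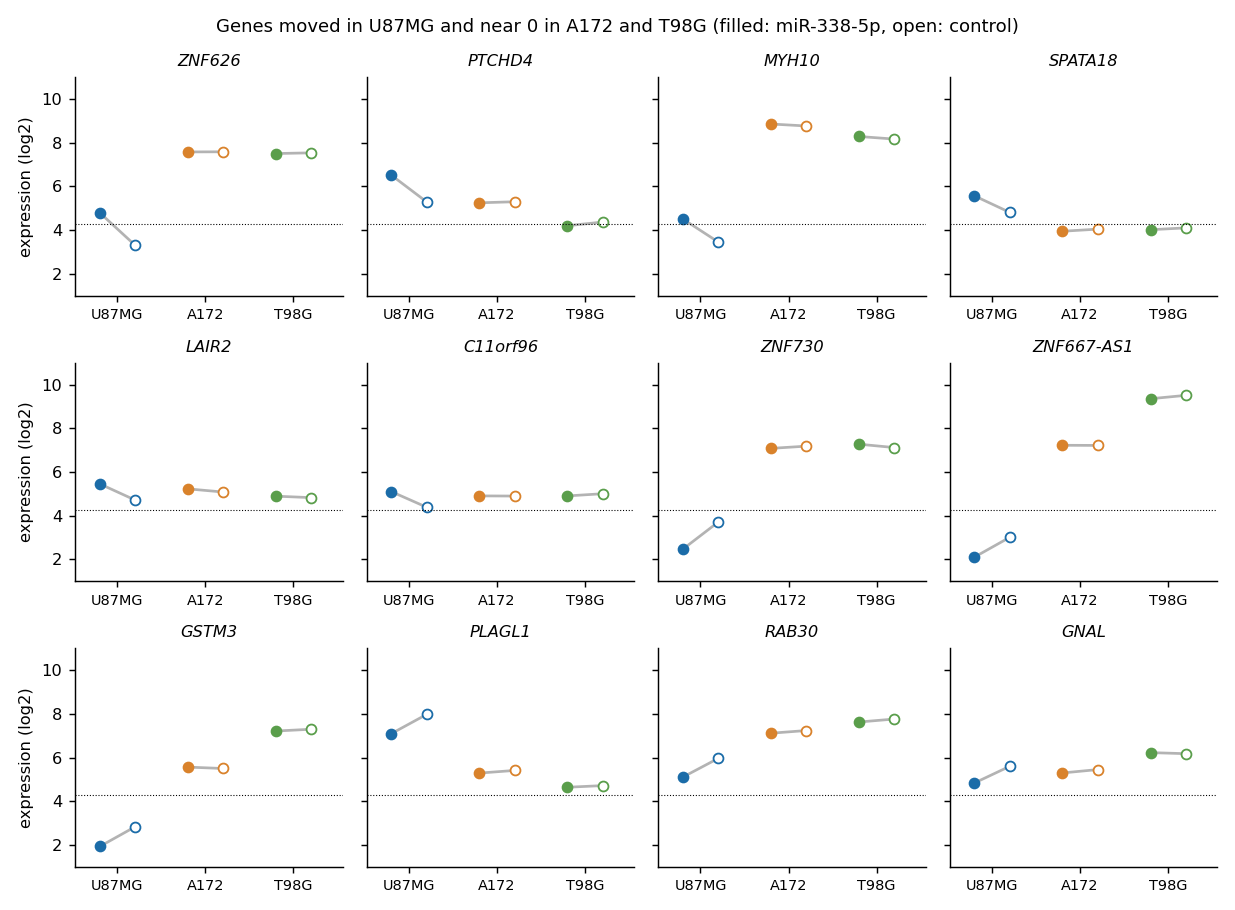
Log2 expression (y axis) in each of the 6 arrays, filled for the mimic and open for the control, of the 6 higher and 6 lower genes with the largest U87MG differences among those under 0.2 either way in A172 and T98G. The dotted line is the filter level of 4.28; ZNF626, MYH10, ZNF730, ZNF667-AS1 and GSTM3 lie near or under it in U87MG and above it in the other lines.

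SNAI1, a transcription factor of epithelial-mesenchymal transition, was the only gene moved by at least 0.5 in U87MG and by at least 0.5 the other way in both other lines. It was at 4.80 with the mimic and 4.26 with the control in U87MG, 4.37 and 4.91 in A172, and 5.92 and 6.67 in T98G. The differences were 0.54, -0.54 and -0.76.

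Gene families were read from 48 lists, each by its tested members at least 0.5 higher or lower and by its median, beside 1.38% higher, 1.85% lower and a median of 0.02 over all genes. Of the 46 lists with 5 or more tested members, 41 had a median within 0.1 of 0 in U87MG, and 14 had no member past 0.5. The lists and their members were chosen with earlier results of these data known, so their readings in any fit are no independent evidence. Over all lists 36 genes were lower and 22 higher by at least 0.5. In the A172 and T98G fit, 28 of the 36 and 11 of the 22 reached an unadjusted p under 0.05 the same way. Over all genes the shares were 5.01% as lower and 4.68% as higher. None of the listed genes passed after adjustment.

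Families with several lower members came first. Of 29 Polycomb genes, which keep developmental genes silent, 4 were lower by at least 0.5 and 0 higher. The 4 all reached an unadjusted p under 0.05 as lower in the fit on A172 and T98G alone (adjusted p between 0.0734 and 0.196). SCML2 was at 5.15 with the mimic and 6.28 with the control (-1.13), CBX6 at 6.76 and 7.42 (-0.66), and PCGF5 at 7.64 and 8.21 (-0.58), beside SCML1. The list's median was 0.02, and -0.01 after a loess trend was removed. Of 34 RAB GTPases, the switches of vesicle traffic, 4 were lower and 0 higher: RAB1A, RAB18 (-0.57), RAB22A (-0.55) and RAB38 (-0.55). The first 3 reached an unadjusted p under 0.05 in that fit, while RAB38 differed by 0.02 in A172 and -0.29 in T98G. RAB30, lower by 0.85 in U87MG and near 0 in the other lines, was not on the list. Of 34 genes of ER to Golgi transport, the route RAB1A serves, 0 passed 0.5 either way. ARF4 was nearest on the lower side, at 10.71 with the mimic and 11.01 with the control.

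Of 36 components of cullin-RING ubiquitin ligases, 3 were lower and 1 higher, and all 4 reached an unadjusted p under 0.05 the same way in that fit (adjusted p between 0.145 and 0.186). SKP1, the adaptor of the SCF complex, was at 8.93 with the mimic and 9.86 with the control, CUL2 at 8.40 and 8.95, and SPOP at 7.93 and 8.46. WSB1, a substrate receptor, was at 8.03 with the mimic and 7.16 with the control. Of 31 genes of microRNA action and RNA decay, 2 were lower, with an adjusted p of 0.138 each in that fit: DCP2 and PAN3, a subunit of a deadenylase, at 6.58 with the mimic and 7.28 with the control. Of 29 listed G protein subunits and regulators 2 were lower, GNAQ, at 8.33 with the mimic and 9.49 with the control, and GNB4, at 7.56 and 8.16. GNAL, lower by 0.76, was not on the list.

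Of 18 ligands of the immune receptor NKG2D and MHC class I genes, 2 were lower by at least 0.5, MICB and ULBP2. MICB, a stress ligand seen by natural killer cells, was at 7.49 with the mimic and 8.27 with the control, a difference of -0.77, with -0.85 in A172 and -0.85 in T98G. MICA, at 6.93 and 7.37, differed by -0.44 and did not reach 0.5 in U87MG, but differed by -0.64 in A172 and -0.80 in T98G. ULBP2 was at 5.06 with the mimic and 5.64 with the control, with -0.58 in U87MG, -0.56 in A172 and -0.10 in T98G. Its adjusted p was 0.202 in the 3-line fit and 0.525 in the fit on A172 and T98G alone. Of 38 genes of TGF-beta and BMP signalling 3 were lower and 1 higher, with a median of -0.07. TGFBR1, the type I receptor, was at 8.93 with the mimic and 9.88 with the control, -0.95 in U87MG, with -0.57 in A172 and -0.57 in T98G. ID3, a BMP target, was at 7.42 with the mimic and 8.18 with the control in U87MG, yet differed by 0.27 in A172 and -0.39 in T98G. TGFB3 was lower by 0.66 and ACTA2, smooth muscle actin, higher by 0.51.

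Lipid and mitochondrial genes held single large differences. Of 26 genes of fatty acid and triglyceride synthesis 2 were lower, GPAT3 and GPAM, its mitochondrial counterpart (7.54 with the mimic and 8.17 with the control), and 1 higher, AGPAT2 (5.64 and 4.96). GPAM differed by -0.64 in U87MG, -0.12 in A172 and -0.22 in T98G, and AGPAT2 by 0.69, -0.38 and 0.00. Of 25 genes of cholesterol synthesis and uptake 19 lay below 0, with a median of -0.09. SOAT1, which esterifies cholesterol, was at 7.65 with the mimic and 8.56 with the control, -0.91 in U87MG, with -1.33 in A172 and -0.85 in T98G. The medians of the list in A172 and T98G were -0.13 and -0.13. Of 26 genes of mitochondrial import, ATAD1 was lower and TOMM20 higher. Of 55 genes of oxidative phosphorylation 16 were above 0, with a median of -0.06, and NDUFB5 alone passed 0.5, at 8.79 with the mimic and 9.32 with the control.

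Of 22 genes of protein phosphatase 2A, PPP2R5A was lower and PPP2R1B, a scaffold subunit, was higher, at 7.87 with the mimic and 7.21 with the control, with 0.67 in A172 and 0.94 in T98G. Of 27 phosphoinositide enzymes 2 were higher, PTPMT1 and PIP4K2A, at 9.25 with the mimic and 8.57 with the control, with 1.09 in A172 and 0.77 in T98G. RHEB and SESN3 (0.56) were the members of 32 mTOR and PI3K genes past 0.5. NDFIP1 alone passed 0.5 among 16 NEDD4-family ligases and adaptors. That list had the highest median of all, 0.15, with 11 members above 0. Of 19 receptor tyrosine kinases MET alone passed 0.5. EGFR was at 8.09 with the mimic and 8.44 with the control, with -0.36 in U87MG, -0.58 in A172 and -0.43 in T98G. Its adjusted p was 0.0641 in the 3-line fit and 0.216 in the fit on A172 and T98G alone.

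Few cell cycle genes differed by 0.5. Of 48 genes of G1/S and DNA replication 37 lay above 0, with a median of 0.11 in U87MG, 0.11 in A172 and 0.04 in T98G. RFC3, a clamp loader subunit, went the other way, at 8.88 with the mimic and 9.45 with the control, with -0.46 in A172 and -0.71 in T98G. GINS3 was higher by 0.57. Of 40 genes of G2/M and mitosis 29 lay above 0, with a median of 0.07 and 0 past 0.5. Of 41 replication-dependent histones, whose near-identical copies can share probes, 32 lay above 0, with medians of 0.06 in U87MG, 0.00 in A172 and -0.07 in T98G. Over all genes, 7561 of 13813 (54.7%) lay above 0.

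Of 13 D cyclins and CDK inhibitors CCND3 and CDKN1A were higher, while CDKN1B, the inhibitor p27, was at 7.86 with the mimic and 8.11 with the control. Of 46 genes of DNA damage response and repair 0 passed 0.5, with a median of 0.04. Of 26 apoptosis regulators MCL1, a survival factor, was higher, at 9.65 with the mimic and 9.08 with the control. It differed by 0.57 in A172 and 0.36 in T98G. Its adjusted p was 0.0508 in the 3-line fit and 0.282 in the fit on A172 and T98G alone.

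Of 37 genes of the actin and myosin cytoskeleton 31 lay above 0 in U87MG, against 19 in A172 and 16 in T98G. The medians were 0.12, 0.01 and -0.03. RHOB was at 6.63 with the mimic and 6.07 with the control, PKN3 was higher by 0.34, and PKN2 was lower by 1.21. Immediate early genes, the first to respond to growth factors and serum, had medians of 0.09 in U87MG, -0.10 in A172 and -0.11 in T98G over 22 genes. KLF4 was at 6.31 with the mimic and 5.69 with the control (0.62), CCN1 at 6.50 and 6.02, and EGR1 at 7.76 and 7.30. CCN1 differed by -0.04 in A172 and -0.21 in T98G. The cytosolic ribosomal proteins, 43 genes, had medians of 0.03 in U87MG, -0.05 in A172 and -0.10 in T98G. A difference of any list between lines was not tested.

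The interferon response was the list on which the lines stood furthest apart. In A172, 26 of 39 interferon-induced genes were higher by at least 0.5, with a median of 0.61. In U87MG 0 were higher and 2 lower, with a median of -0.06, and in T98G 0 passed 0.5 either way, with a median of -0.06. IFIT1, which binds viral RNA, was at 4.38 with the mimic and 4.95 with the control in U87MG, -0.58, against 2.37 in A172 and -0.36 in T98G. MX2 was at 4.28 with the mimic and 4.96 with the control, -0.68, against 1.32 in A172 and -0.28 in T98G. IFIT3 (0.45) and RIGI, a sensor of viral RNA (0.41), were above 0 in U87MG, against 1.46 and 1.16 in A172. The response of an innate antiviral kind seen in the A172 array was therefore not seen in U87MG at 24 hours, with 1 array behind each value.

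**Figure D5:**
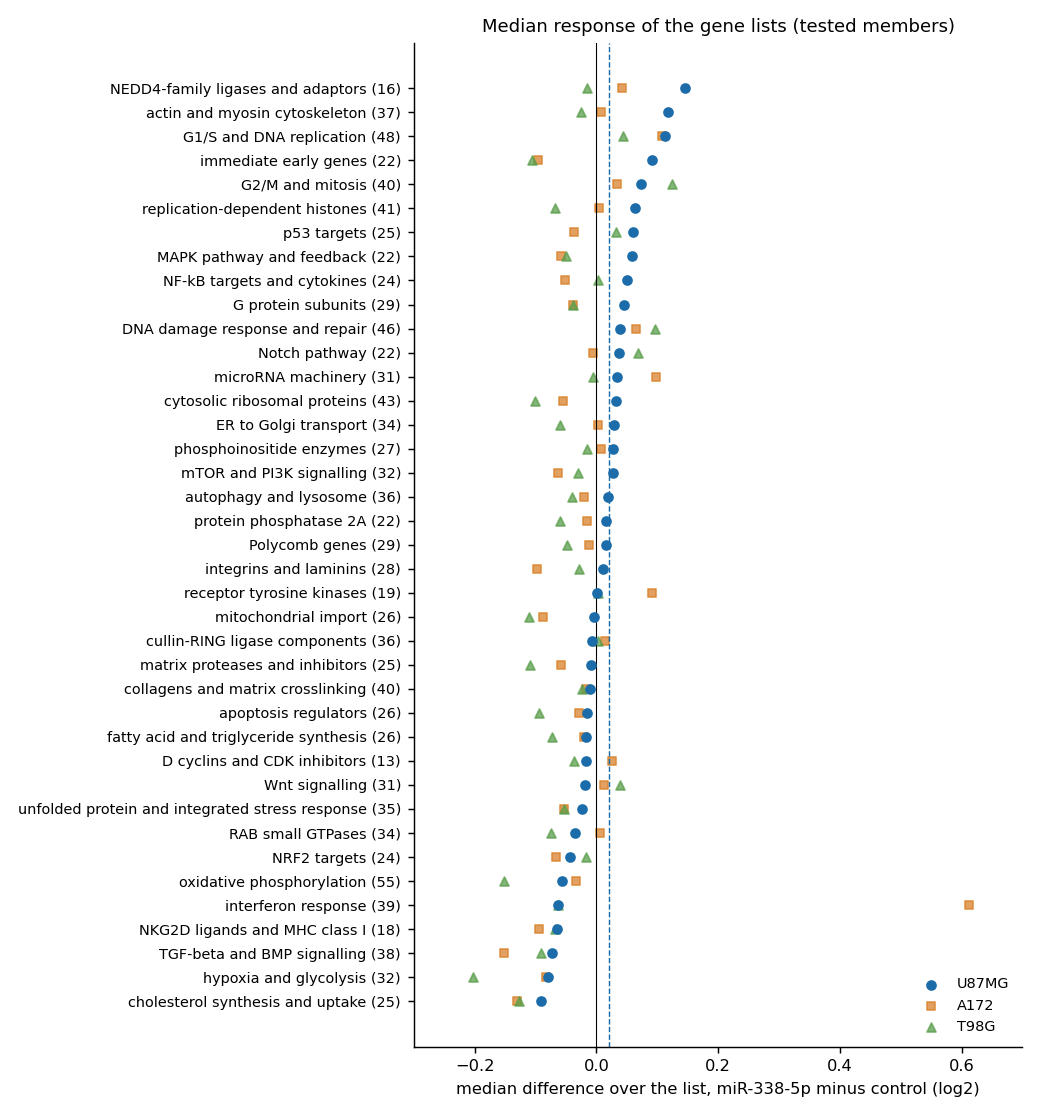
Median mimic minus control difference (log2, x axis) over the tested members of each gene list (number in brackets), in U87MG (circles), A172 (squares) and T98G (triangles); the dashed line is the U87MG median of all genes, 0.02. Most medians lie within 0.1 of 0, and the interferon list in A172, at 0.61, is the far point.

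Of 24 NF-kB targets and cytokines 0 passed 0.5. CXCL8, a neutrophil chemokine, was at 7.98 with the mimic and 7.60 with the control, 0.38, against -0.69 in A172 and -0.11 in T98G. Of 22 Notch genes only RBPJ passed 0.5. HEYL, a Notch target, was at 4.80 with the mimic and 5.28 with the control, and JAG1, a ligand, at 6.72 and 6.42. In Wnt signalling FZD6, a receptor, was at 7.48 with the mimic and 8.34 with the control, -0.86, against -0.25 in A172 and -0.35 in T98G. DKK1, a secreted Wnt inhibitor, was at 6.65 with the mimic and 6.07 with the control. Neither passed the 3-line fit (adjusted p = 0.179 and 0.159).

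Stress and matrix lists held few differences. Under hypoxia and glycolysis 10 of 32 genes lay above 0, with medians of -0.08 in U87MG, -0.08 in A172 and -0.20 in T98G. ADM, a hypoxia-induced peptide, was at 7.81 with the mimic and 8.46 with the control. Of 35 genes of the unfolded protein and integrated stress response and of 24 NRF2 targets 0 passed 0.5. Of 36 autophagy and lysosome genes ATG12 was higher by 0.53. Of 40 collagens and crosslinking genes LOXL2, a lysyl oxidase, was lower by 0.51. Its adjusted p was 0.0537 in the 3-line fit and 0.269 in the fit on A172 and T98G alone. ADAMTS12 was higher by 0.51 among 25 matrix proteases and inhibitors, and 0 of 28 integrins and laminins and 0 of 22 MAPK genes passed 0.5.

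Markers of other cell types were compared between the 2 U87MG arrays as summed levels. These were 9.11 with the mimic and 9.21 with the control for neuronal markers, 10.51 and 10.59 for leukocyte markers, of which CD68 made up most, and 7.89 and 7.95 for endothelial markers. They were 9.14 and 9.20 for epithelial markers, 10.16 and 10.08 for fibroblast and pericyte markers, and 8.70 and 8.90 for oligodendrocyte markers. Among the last, UGT8 differed most, at 5.84 with the mimic and 7.12 with the control, while CNP was at 8.06 and 7.92. PTPRC, the defining leukocyte marker, lay at 2.73 with the mimic and 2.70 with the control. No summed level differed by more than 0.2.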

How the data were processed

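RNA of A172, T98G and U87MG was measured on 6 one-colour Affymetrix arrays, 1 for each line and treatment. The authors deposited log2 expression values for 33297 probe sets, made by RMA with oligo in R 3.0.1 per the submitters' processing notes. Filters: not given in the sources used here; likewise batches. RMA's quantile step gives the arrays 1 common distribution, so a shift common to most genes would be largely removed. The number of arrays limits the precision, and no depth exists for arrays.

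The platform annotation gave 1 symbol to 19460 probe sets, several to 1754 and none to 12083. Identifiers of 19429 of the first matched the RefSeq table of GRCh38.p14. For the 769 of 18417 genes with more probe sets, the probe set with the highest 6-array mean stands for the gene. The 25% of genes with the lowest means were dropped, which left 13813. Of 1388 listed genes, 105 had no 1-symbol probe set and 60 fell under the filter.

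Differences are mimic minus control. limma 3.58.1 in R 4.3.3 (two-sided, Benjamini-Hochberg over all genes) was fitted over 3 lines with the line as block, over A172 and T98G, and on U87MG against A172 and T98G, where 1 residual degree of freedom comes from A172 and T98G. The line in the labels pairs the arrays. The p-values measure the spread between lines. The code was tested on simulated data.

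Named were the 14 highest and 14 lowest U87MG differences with a U87MG mean above the filter level, PPP2R5A, NDFIP1, RHEB and AATK, up to 6 a direction of the absent and opposite genes, up to 4 members of each list, and the 6 smallest p of the test between lines. MDM2, BAX, BBC3, PMAIP1, UGT8, RPSAP52 and the cell type markers were named after their values were seen. The lists, rules and members were chosen with earlier results of these data known. Alternatives were other filters, centring, repeated quantile normalization, a loess trend, the mean over probe sets, a variance prior that follows expression, no block, and leaving out each line.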

Additional observations from a re-analysis of the deposited data

Results flagged for a closer look

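Of 209 named genes, 33 had a U87MG difference of opposite sign to those of both other lines, and in 3 of them it was at least 0.2 in size in every line. HSP90AA6P, a heat shock protein pseudogene, was lower by 0.76 in U87MG (-0.76, at 5.19 with the mimic and 5.95 with the control), against 0.50 in A172 and 0.48 in T98G. SNAI1 was higher by 0.538 in U87MG, from a control value under the filter level, against -0.54 in A172 and -0.76 in T98G. DUSP5, a phosphatase that inactivates ERK, was higher by 0.273 in U87MG, at 7.98 with the mimic and 7.70 with the control, against -0.34 in A172 and -0.21 in T98G. Each rests on 1 array a side. In limma's test of U87MG against A172 and T98G no gene passed (lowest adjusted p = 0.95), so none of the 3 is shown to differ between lines.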

How the results depend on the processing

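Of 1401 values of 209 named genes recomputed under other settings, 1398 moved by less than 0.218, the SD of the U87MG difference over genes, and no difference of at least 0.5 changed sign. The 3 that moved came from the mean over probe sets: 0.20 for CCDC85C, 0.61 for RBPJ and 0.84 for ZNF626. Without a filter 297 genes were higher and 423 lower by at least 0.5, with 67 and 77 of them absent from both lines. With the lowest 50% left out these were 104, 152, 19 and 10, and 8 genes were higher by at least 1. The filter decides how many dim genes count. The 3-line fit, with the cell line as replicate block, called 153 genes, 60 without a filter, 360 with the 50% filter, 236 with arrays centred on medians, 471 with the variance prior made to follow expression, and 0 with no cell line block. Leaving out 1 line gave 0 to 117 calls: 64 without A172, 117 without T98G and 0 without U87MG. The fit on A172 and T98G alone called 0 genes, 158 with the 50% filter, 211 with centring, 5 with repeated quantile normalization and 397 with the variance prior that follows expression. The test of U87MG against A172 and T98G called 2 genes, SSTR5-AS1 and ZNF626, with centring (adjusted p = 0.00617 and 0.0164) and with that prior (0.0449 each), and 0 under the other settings. The cause of these shifts was not tested. Of 336 list medians 323 moved by less than 0.05. The median turned its sign under at least 1 setting in 12 lists, of which 11 lay within 0.03 of 0; that of the oligodendrocyte markers, 2 tested genes at 0.112, turned to -0.1191 without a filter, where 7 are counted. The median over all genes ranged between 0.0001 and 0.03. That test could not be fitted without A172 or T98G, since no residual degree of freedom remains.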

Other observations

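The filter on the mean over 6 arrays can leave out genes expressed mainly in U87MG. Of the genes it left out, 159 stood at or above its level in both U87MG arrays. Whether A172 and T98G lacked them was not required. Of the 159, 10 were higher and 9 lower by at least 0.5, beside 1.38% and 1.85% of the 13813 genes tested. By at least 1 there were 1 each way, named here after their values were seen. UGT8, the enzyme that makes the galactolipids of myelin, was at 5.84 with the mimic and 7.12 with the control in U87MG, a difference of -1.28. It lay at 3.15 and 3.05 in A172 and 3.15 and 2.98 in T98G, near the floor, so the other lines cannot show whether it moves. RPSAP52, a transcribed pseudogene, was at 6.89 with the mimic and 5.56 with the control in U87MG, 1.32 higher, and below 2.80 in the other arrays.

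Probe sets that the annotation gives to several symbols held 2 of the shared differences. The one of COMMD3-BMI1 and BMI1, which covers a core Polycomb gene and its readthrough transcript, was at 7.65 with the mimic and 9.30 with the control, -1.65 in U87MG, -1.63 in A172 and -1.58 in T98G. The one of BIVM-ERCC5 and ERCC5, which covers a nucleotide excision repair endonuclease, was at 9.17 with the mimic and 7.96 with the control, 1.21 in U87MG, 1.12 in A172 and 0.81 in T98G. Their genes cannot be told apart on this array and are in no list count above.

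Of 5036 probe sets with no symbol at or above the filter level, 50 were higher and 56 lower by at least 1 in U87MG. Only 4 and 2 of these were shared with both lines. Of the 13813 genes, 14 (0.101%) were higher and 22 (0.159%) lower by that size, so probe sets with no symbol passed it far more often. Their differences ran between -3.94 and 2.60. Among 556 genes with a second probe set at or above that level, the U87MG differences of the 2 brightest correlated at r = 0.543. In 74 of these genes, however, both probe sets hold identical values, and over the 482 others r was 0.486. Of 19 of the 482 that differed by at least 0.5, 15 had a second probe set of the same sign and 9 by at least 0.5.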
